A study of Mus musculus with 21 samples.

Results

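The B cell genes described here were 9 genes that mark cells of the B lineage, namely Cd79a, Cd79b, Ms4a1, Ighm, Igkc, Ighd, Cd22, Fcmr and Pax5, chosen by name among the 56691 genes of the expression table. They were followed in 21 RNA-seq libraries of mouse heart, each summarised as reads per gene. Control mice (5 libraries) carried no tumor and received normal saline, and DOX mice (5 libraries) received doxorubicin, an anthracycline chemotherapeutic, at 5 mg/kg by intraperitoneal injection once weekly for 3 weeks. Tb mice (6 libraries) bore a subcutaneous tumor grown from 4T1 cells, a mouse mammary carcinoma line, and received saline, while Tb-DOX mice (5 libraries) bore the same tumor and received doxorubicin. Strain, sex and age were not given in the sources used here. The labels name the tumor cell line as the source of all libraries, including those without a tumor, but the libraries read as heart: summed cardiomyocyte markers lay between 48479 and 90896 CPM (reads of a gene scaled to a common library size), and summed epithelial markers between 0.194 and 4.59 CPM.

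B cells recognise antigen through the B cell receptor, a membrane-bound immunoglobulin of heavy and light chains held together with the signaling pair Cd79a and Cd79b. Naive mature B cells carry the receptor as IgM and IgD, and the transcription factor Pax5 keeps them in the B lineage until they become plasma cells. The mouse heart holds a population of B cells, many of them within its blood vessels, so their transcripts are a small part of the RNA of whole heart. In such bulk tissue, fewer B cells and less RNA per B cell cannot be told apart, and neither can cells in the tissue and cells in retained blood.

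The libraries held between 13521200 and 18601445 reads assigned to genes, and the B cell genes were near the lower end of what this depth can measure. Of the 9 members, 6 (Cd79a, Cd79b, Ighm, Igkc, Ighd and Pax5) reached a mean of 5 reads per library and entered the test over 16761 genes, while Ms4a1, Cd22 and Fcmr did not. Cd79a and Pax5 reached this minimum only through Tb, since their mean over the 15 other libraries was 4.53 and 2.40 reads, whereas Cd79b (5.87), Igkc (8.13), Ighd (9.33) and Ighm (42.3) passed it there too. The test was edgeR's quasi-likelihood F test with all 4 groups in 1 fit, and a gene was called at a Benjamini-Hochberg adjusted p under 0.05 with a log2 fold change of at least 1 in size. CPM values below are scaled by edgeR's TMM factors. The sources do not state that each library came from a separate mouse, so the p-values measure the spread between these libraries, which may be partly technical.

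The summed level of the 9 genes was highest in tumor-bearing hearts without doxorubicin and low in both doxorubicin groups. Its median was 7.34 CPM in Control (range 4.60 to 8.60), 3.52 in DOX (3.12 to 4.46), 15.8 in Tb (10.7 to 19.6) and 3.81 in Tb-DOX (2.73 to 8.57). The DOX libraries lay below all Control libraries, and the Tb-DOX libraries lay below all Tb libraries. Ighm supplied 61.5% of the members' reads in Control, 40.7% in DOX, 54.7% in Tb and 53.7% in Tb-DOX, more than any other member, so the sum largely follows it. In DOX against Control only Ighm, of the 6 members tested, had libraries that did not overlap. There the log2 fold changes were -0.95 for Cd79b, -1.19 for Igkc, -0.02 for Ighd, 0.28 for Cd79a and 1.63 for Pax5, none of them called. The separation of DOX from Control in the sum therefore does not describe the members as a group.

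With doxorubicin and no tumor, 1 of the 6 members tested was called lower, Ighm, where 6.75% of all genes tested were called lower. In tumor-bearing mice, doxorubicin went with 4 of 6 called lower, namely Ighm, Cd79a, Igkc and Pax5, beside 0.704% of all genes. Of the 4 members that passed the count minimum outside Tb, 2 were called there, Ighm and Igkc. In the edgeR fit with no count minimum, Cd79a and Pax5 had log2 fold changes of -2.04 in that comparison but were not called (adjusted p = 0.0719 and 0.115). The tumor alone went with 1 of 6 called higher, Pax5, beside 3.88% of all genes, and Pax5 had entered the test through its Tb reads. With doxorubicin in both groups, the tumor went with 0 of 6 called by edgeR, where 6.45% of all genes were called in either direction; there Ighm alone had an unadjusted p under 0.05 (0.0316), and DESeq2 also called none. The median log2 fold change over the 6 members was -0.48, -1.90, 1.20 and 0.09 in these comparisons in turn, and that over all genes tested lay between -0.03 and 0.00. Because Cd79a and Pax5 were tested on account of Tb, where they were highest, the counts and medians of the comparisons with Tb describe these 6 genes only. Control and Tb each enter a pair of these comparisons, as do DOX and Tb-DOX, so the comparisons are not independent of each other.

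**Figure D1:**
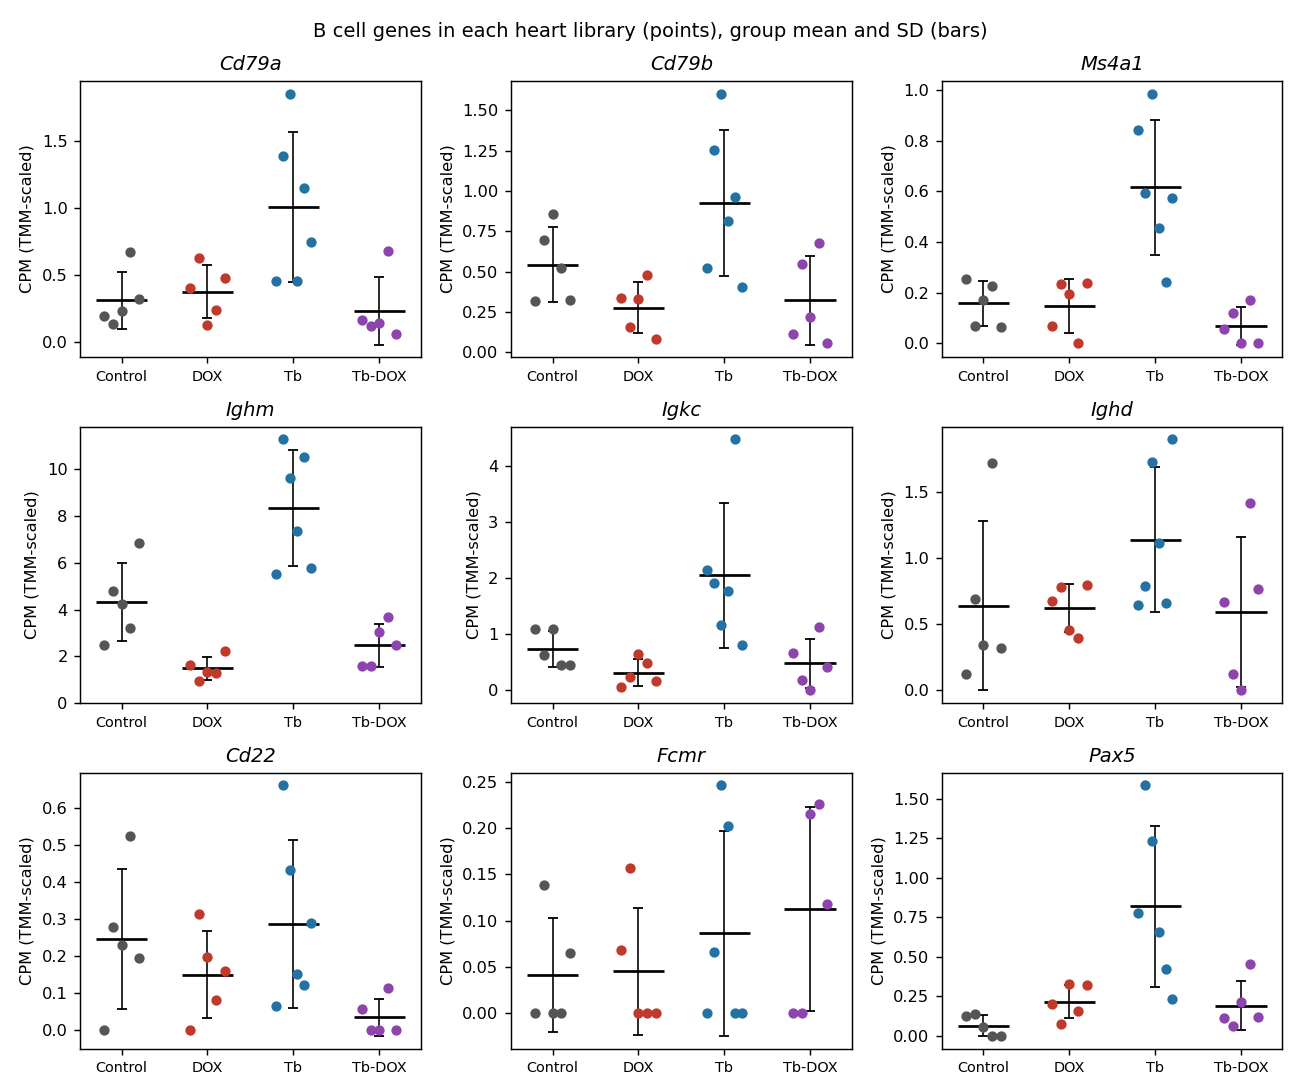
Level of each B cell gene in each heart library, in TMM-scaled CPM on a linear axis of its own for each gene; points are libraries, the horizontal line is the group mean and the bar is 1 SD (5 Control, 5 DOX, 6 Tb and 5 Tb-DOX libraries). Ighm in DOX lies below every Control library, and Ighm and Ms4a1 in Tb-DOX lie below every Tb library, while Ighd overlaps between all groups.

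Ighm, the constant region gene of the IgM heavy chain (chr12:113382178-113386350, minus strand, GRCm39), was the most abundant member and was lower with doxorubicin in both settings. Its levels were 2.49, 4.79, 4.23, 3.22 and 6.85 CPM in Control 1 to 5, and 1.62, 0.94, 1.31, 1.28 and 2.23 CPM in DOX 1 to 5. Every DOX library was below every Control library, as held for 12.5% of all genes tested in that direction. The fall was 2.92-fold, a log2 fold change of -1.55 ± 0.32 (SE; edgeR, adjusted p = 0.000868). In Tb the lowest, median and highest levels were 5.52, 8.49 and 11.3 CPM, and Tb-DOX 1 to 5 held 1.56, 1.58, 3.02, 3.69 and 2.49 CPM. These groups did not overlap either, as held for 2.18% of all genes in that direction, and the difference was 3.38-fold, a log2 fold change of -1.76 ± 0.29 (edgeR, adjusted p = 0.00207).

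Neither tumor-related difference of Ighm was called. Between Tb (mean 8.34 ± 2.48 CPM, SD, n = 6) and Control (4.32 ± 1.67, n = 5) the log2 fold change was 0.95 ± 0.28 (edgeR, adjusted p = 0.0426), which was under the fold minimum, and Control 5 lay above 2 Tb libraries. Between Tb-DOX (2.47 ± 0.92 CPM) and DOX (1.48 ± 0.49) it was 0.74 ± 0.32 (edgeR, adjusted p = 0.12). The effect of doxorubicin on Ighm differed between tumor-bearing and tumor-free mice by -0.21 ± 0.43 on the log2 scale (edgeR, adjusted p = 0.785), a difference smaller than its error.

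Ighd, the IgD heavy chain constant gene that lies beside Ighm (chr12:113370224-113379944, minus strand, GRCm39) and is expressed from the same transcription unit, overlapped between the groups in all 4 comparisons. Its reads numbered 2, 10, 6, 23 and 5 in Control 1 to 5, and 10, 10, 7, 5 and 10 in DOX 1 to 5. The means were 0.642 ± 0.638 CPM in Control and 0.623 ± 0.184 in DOX, and the log2 fold change was -0.02 ± 0.69 (edgeR, adjusted p = 0.989). Control 4 held 23 of the 46 Control reads, and without it the log2 fold change was 0.75 (edgeR, adjusted p = 0.433). In Tb the lowest, median and highest counts were 10, 17 and 33 reads, and Tb-DOX 1 to 5 held 12, 2, 0, 25 and 13. That difference was -0.91 ± 0.62 on the log2 scale (edgeR, adjusted p = 0.445).

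The Ighd share of the reads of both genes was made from the same counts, so it restates the values above for Ighm and Ighd and its p-values are no separate evidence. It was 12.9 ± 12.7% in Control (SD, n = 5), 30.2 ± 8.77% in DOX (n = 5), 12.7 ± 6.95% in Tb (n = 6) and 17.7 ± 13.3% in Tb-DOX (n = 5). In 4 Control libraries the share lay between 4.50% and 12.7%, and all DOX libraries lay between 23.8% and 45.5%, but Control 4, at 34.8%, lay inside the DOX range. The difference of 17.3 percentage points had a two-sided exact permutation p of 0.0397, which over the 20 tests of immunoglobulin measures made here gave an adjusted p of 0.314. Leaving out a single library moved it between 13.5 and 22.8 points, with exact p-values up to 0.0873. In tumor-bearing mice the share rose by 5.01 points with doxorubicin, which did not exceed the spread (exact permutation p = 0.433).

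**Figure D2:**
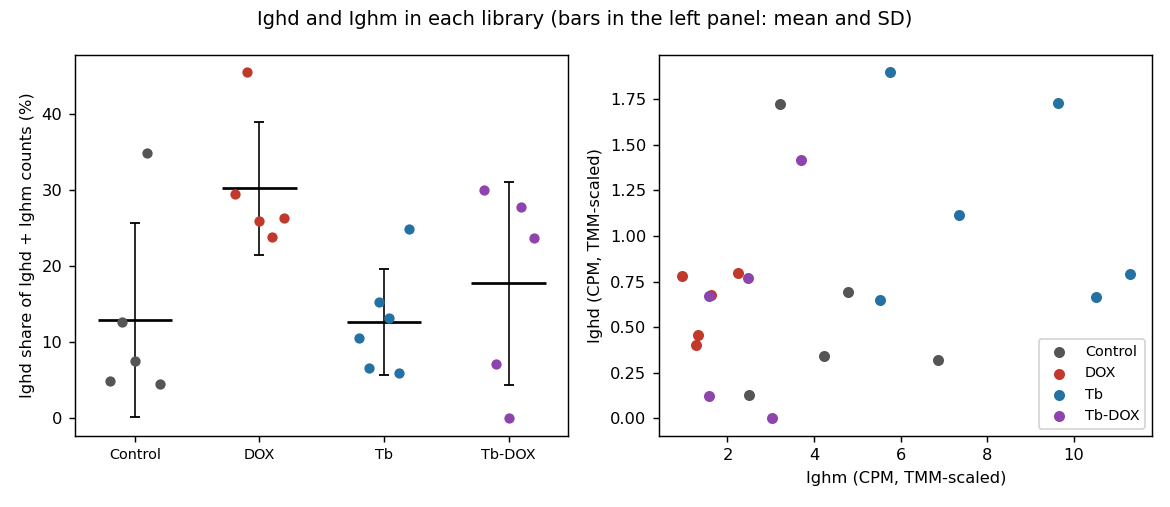
Left, Ighd reads as a percentage of Ighd plus Ighm reads in each library, with the group mean and SD; right, Ighd level against Ighm level in each library, both in TMM-scaled CPM. The DOX libraries hold shares of 23.8% to 45.5% at low Ighm levels, and Control 4 (34.8%) stands above the other Control libraries.

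Igkc, the constant gene of the kappa light chain (chr6:70703419-70703950, plus strand, GRCm39), held 33, 29, 19, 35, 74 and 14 reads in Tb 1 to 6 and 12, 3, 0, 20 and 7 reads in Tb-DOX 1 to 5. Scaled to library size, all Tb-DOX libraries other than Tb-DOX 4 (1.13 CPM) lay below the lowest Tb library (0.806 CPM). The difference was 4.12-fold, a log2 fold change of -2.04 ± 0.58 (edgeR, adjusted p = 0.0486), close to the threshold. Without the tumor the means were 0.740 ± 0.324 CPM in Control and 0.319 ± 0.242 in DOX, and the log2 fold change was -1.19 ± 0.67 (edgeR, adjusted p = 0.173). Between Tb and Control it was 1.45 ± 0.56 (edgeR, adjusted p = 0.144). A predicted gene on the same strand, Gm30211, overlaps Igkc and held 16 reads over all libraries, so its part in these counts could not be separated.

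The lambda chains and the variable segments had few reads. Igkc made up 86.0% of the reads of Igkc, Iglc1, Iglc2 and Iglc3 in Control on average, 80.5% in DOX, 80.5% in Tb and 70.9% in Tb-DOX, with exact permutation p-values between 0.558 and 0.77 in the 4 comparisons. Of 346 variable segments in the table, 64 had a read in any library, with 209 reads in all, led by Iglv1 (14 reads), Igkv1-135 (10) and Igkv5-48 (9). Their summed level was 0.402 ± 0.307 CPM in Control, 0.449 ± 0.203 in DOX, 1.06 ± 0.73 in Tb and 0.474 ± 0.392 in Tb-DOX. The difference between Tb and Control had an exact permutation p of 0.0498 and an adjusted p of 0.314 over the same 20 tests, and the DOX and Control values overlapped (p = 0.754 by the exact permutation test). The number of segments with a read and the share of the most abundant segment had exact permutation p-values between 0.0238 and 0.865, and adjusted p-values of 0.314 or more.

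Cd79a and Cd79b carry the signal of the receptor into the cell through a pair of tyrosines in their cytoplasmic tails, the ITAM, which Src-family kinases phosphorylate. The stretch of coding sequence that holds it is shown for both, since they are the members that make any immunoglobulin a signaling receptor. Both come from the GENCODE M21 transcripts (GRCm38), in which the stretch spans an intron, with the codons of the tyrosines in capitals. For Cd79a it lies at chr7:24901296-24901469 on the plus strand, and for Cd79b at chr11:106311867-106312012 on the minus strand, and 31 of 45 bases (68.9%) were identical.
Cd79a: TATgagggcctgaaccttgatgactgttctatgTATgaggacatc
Cd79b: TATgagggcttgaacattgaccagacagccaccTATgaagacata

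Cd79a (chr7:24596806-24601622, plus strand, GRCm39) was lower with doxorubicin in tumor-bearing hearts. It had 7, 21, 30, 9, 19 and 13 reads in Tb 1 to 6, and 3, 2, 2, 12 and 1 in Tb-DOX 1 to 5. All Tb-DOX libraries other than Tb-DOX 4 (0.681 CPM) lay below every Tb library, and Tb-DOX 4 lay above Tb 1 and Tb 4 (0.455 and 0.456 CPM). The log2 fold change was -2.04 ± 0.56, or 4.11-fold (edgeR, adjusted p = 0.0442; 0.0719 with no count minimum). In the absence of a tumor, Control 1 to 5 held 3, 2, 4, 9 and 5 reads and DOX 1 to 5 held 6, 8, 2, 3 and 6, with overlapping values and a log2 fold change of 0.28 ± 0.62 (edgeR, adjusted p = 0.763). The tumor-related difference without doxorubicin was 1.69 ± 0.55 (edgeR, adjusted p = 0.0753).

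Cd79b (chr11:106202167-106205588, minus strand, GRCm39) was not called in any of the 4 comparisons by this edgeR fit. It had 8, 19, 26, 16, 16 and 7 reads in Tb 1 to 6 and 2, 9, 3, 12 and 1 reads in Tb-DOX 1 to 5. Tb-DOX 2 and Tb-DOX 4 (0.546 and 0.681 CPM) lay within the Tb range, and the others lay below it. The log2 fold change was -1.49 ± 0.52 (edgeR, adjusted p = 0.108). It was -0.95 ± 0.58 between DOX and Control (edgeR, adjusted p = 0.212) and 0.75 ± 0.50 between Tb and Control (edgeR, adjusted p = 0.41).

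Pax5 (chr4:44524757-44710487, minus strand, GRCm39), the factor that holds cells in the B lineage, was the member with the largest fold difference between tumor-bearing and control hearts. Its reads numbered 2, 2, 1, 0 and 0 in Control 1 to 5 and 12, 24, 20, 13, 7 and 4 in Tb 1 to 6. Every Tb library was above every Control library, as held for 4.28% of all genes in that direction. The log2 fold change was 3.48 ± 0.68, or 11.2-fold (edgeR, adjusted p = 0.0017), and it rests on a Control total of 5 reads, so its size is imprecise. The edgeR fit with no count minimum, which does not depend on the Tb reads for entry, gave 3.49 (adjusted p = 0.00294).

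In Tb-DOX 1 to 5, Pax5 had 2, 1, 3, 8 and 2 reads. Tb-DOX 4 (0.454 CPM) lay above Tb 5 and Tb 6 (0.423 and 0.230 CPM), and the other 4 lay below all Tb libraries. The log2 fold change against Tb was -2.03 ± 0.57, or 4.10-fold (edgeR, adjusted p = 0.0473; 0.115 with no count minimum). Without a tumor the value pointed the other way, with 3, 1, 5, 2 and 4 reads in DOX 1 to 5 and a log2 fold change of 1.63 ± 0.79 that did not pass the test (edgeR, adjusted p = 0.115). The test of the difference between these effects was called for Pax5, at -3.67 ± 0.98 on the log2 scale (edgeR, adjusted p = 0.0293), the only 1 of 6 members, beside 3.84% of all genes. Pax5 had entered this test through its Tb reads, and a high Tb level is part of what this difference measures. With no count minimum the adjusted p was 0.0438 by edgeR, and DESeq2 gave a log2 difference of -3.84 with no adjusted p. Cd79a came next, at -2.32 ± 0.84 (edgeR, adjusted p = 0.0828).

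**Figure D3:**
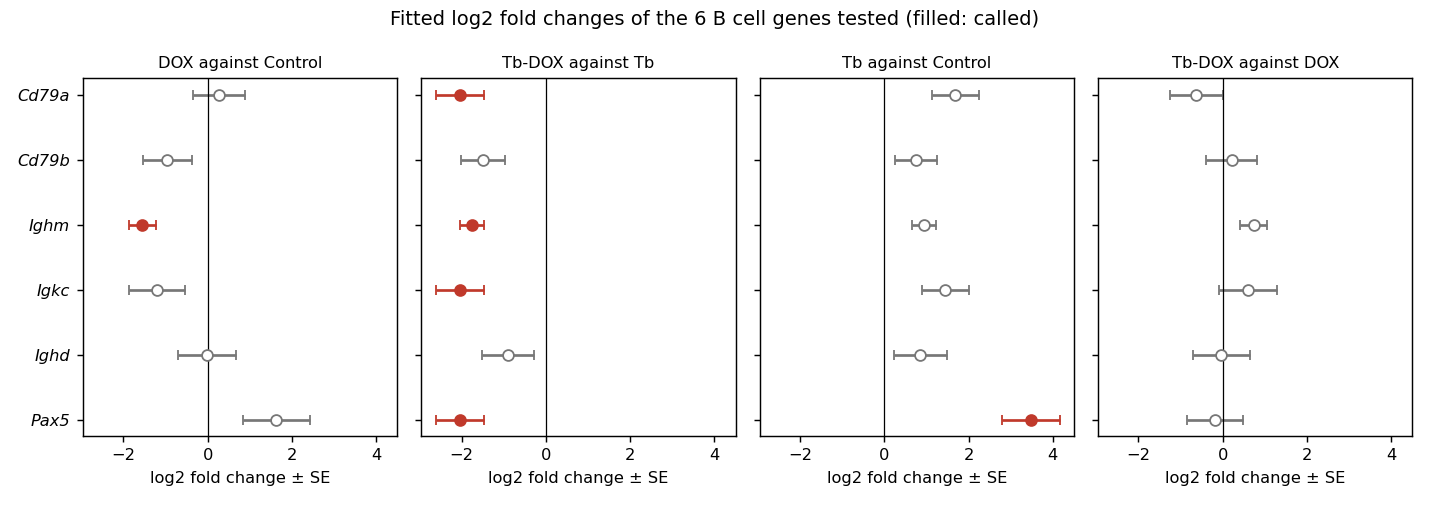
Fitted log2 fold change of the 6 B cell genes tested in each of the 4 comparisons, with bars of 1 SE from edgeR; filled red points were called (adjusted p under 0.05 and log2 fold change of at least 1 in size) and open gray points were not. Ighm is called lower with doxorubicin in both settings, Cd79a, Igkc and Pax5 are called lower in Tb-DOX against Tb, Pax5 is called higher in Tb against Control, and no member is called between Tb-DOX and DOX.

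The 3 members below the count minimum were compared by two-sided exact permutation tests on log2(CPM + 0.5), 12 in all and unadjusted, on which scale the differences of such low genes are understated. Ms4a1, the surface protein known as the target of rituximab-type antibodies (chr19:11227039-11243605, minus strand, GRCm39), had 13, 9, 16, 9, 4 and 10 reads in Tb 1 to 6 and 1, 2, 0, 3 and 0 in Tb-DOX 1 to 5. These groups did not overlap, and the difference was -0.95 (exact permutation p = 0.00433). Control 1 to 5 had 4, 1, 3, 3 and 1 reads, and the difference between Tb and Control was 0.74 (exact permutation p = 0.00649), with Control 1 just above Tb 5 after scaling. In an edgeR fit with no count minimum, which covered 34543 genes, Ms4a1 had a log2 fold change of -2.97 ± 0.76 between Tb-DOX and Tb (adjusted p = 0.0333) and of 1.92 ± 0.70 between Tb and Control (adjusted p = 0.161).

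Cd22, an inhibitory lectin of the B cell surface (chr7:30564827-30579767, minus strand, GRCm39), had 28 reads over the 6 Tb libraries and 3 over the 5 Tb-DOX libraries, and 3 Tb-DOX libraries were at 0. The difference was -0.52 on the same scale (exact permutation p = 0.0152), and the edgeR fit with no count minimum gave an adjusted p of 0.173. Fcmr, the Fc receptor for IgM (chr1:130793406-130808528, plus strand, GRCm39), never exceeded 4 reads and had exact permutation p-values between 0.365 and 0.841. A library at 0 reads still allows up to 3, so a small difference in Fcmr was not detectable at this depth.

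RefSeq promoters were given for 4 of the 9 members, Cd79a, Pax5, Cd22 and Fcmr, and the 250 bases before the start of each were searched on both strands for 4 motifs of B lineage factors. The motifs were ATTTGCAT (the octamer bound by Oct factors with Pou2af1), CCCNNGGG and a longer form of it with 1 more fixed base at each end (early B cell factor), and GAGGAAGT (PU.1). Of 32851 promoters of the same length, 1.6%, 11.8%, 0.779% and 2.44% held them in that order. Among the members only Cd22 held an exact match, a single stretch that matched both forms of the early B cell factor motif, 49 to 40 bases before the start. Sites that differ from these letters were not searched for, so the lack of a match does not show the lack of a site. The promoters of Cd79a and Pax5, the called members that have an entry, and of Cd22 are shown with the match in capitals, from GRCm38.p6 at chr7:24897247-24897496 (plus), chr4:44710695-44710944 (minus) and chr7:30879029-30879278 (minus).
Cd79a promoter: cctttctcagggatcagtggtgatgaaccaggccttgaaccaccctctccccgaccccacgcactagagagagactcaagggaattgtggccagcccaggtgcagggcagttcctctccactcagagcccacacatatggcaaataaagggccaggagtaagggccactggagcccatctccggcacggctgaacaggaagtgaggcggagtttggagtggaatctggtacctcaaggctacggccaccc
Pax5 promoter: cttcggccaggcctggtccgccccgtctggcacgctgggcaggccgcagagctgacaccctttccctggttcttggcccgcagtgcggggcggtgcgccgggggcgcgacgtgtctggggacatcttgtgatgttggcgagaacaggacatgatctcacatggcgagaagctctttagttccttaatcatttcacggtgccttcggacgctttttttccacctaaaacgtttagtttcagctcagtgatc
Cd22 promoter: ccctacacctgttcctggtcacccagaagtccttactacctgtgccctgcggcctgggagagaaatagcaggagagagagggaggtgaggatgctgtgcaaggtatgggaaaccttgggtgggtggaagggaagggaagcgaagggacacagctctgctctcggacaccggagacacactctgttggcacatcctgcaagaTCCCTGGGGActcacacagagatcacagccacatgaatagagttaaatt

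A match is only a description of these letters, and none of the data here measured binding. Seen per length, the members fell into 3 tiers. In Tb, Ighm averaged 4.54 ± 1.23 FPKM (reads per kilobase of exon, scaled to the library total) and Igkc 3.86 ± 2.14, which overlapped. Cd79a (0.710 ± 0.395), Cd79b (0.665 ± 0.323) and Ighd (0.635 ± 0.335) formed a group whose members did not differ beyond their spread. Ms4a1 (0.107 ± 0.045), Pax5 (0.095 ± 0.060), Cd22 (0.057 ± 0.046) and Fcmr (0.052 ± 0.067) were lowest, where the 2 decimals of the deposited FPKM limit the precision.

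Across the 21 libraries, Pearson's r between pairs of the 6 tested members lay between 0.29 and 0.72, with a median of 0.62 over 15 pairs. These pairs share libraries, groups and depth, so the values are a description. Among the 10 genes most like the mean of the members over the 21 libraries were Hspa2 (r = 0.90), Ncapg (0.85), Slc4a1 (0.83), Ccl8 (0.82), Ifi209 (0.82), Egln3 (0.81), Lgmn (0.80), Phf10 (0.80) and Pou2af1 (0.79). Pou2af1 is the B cell coactivator of octamer factors, while Slc4a1 is the anion exchanger of red cells. Pou2af1 had 73 reads in Tb and 14 in Tb-DOX, which is given as a description since the likeness chose it.

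Other genes of the B cell pathway, from lists drawn from general knowledge, were counted in the same fit. Among receptors that raise or lower the B cell signal, 9 of 12 were tested: doxorubicin went with 3 called lower without a tumor and 2 with it, and the tumor with 6 called higher without the drug and 3 with it. Over all genes, 6.75% and 0.704% were called lower with doxorubicin in these settings. For the tumor, 3.88% were called higher in Tb against Control, and 6.45% in either direction in Tb-DOX against DOX. Pirb, an inhibitory receptor also of myeloid cells, rose by 4.47 on the log2 scale between Control and Tb (edgeR, adjusted p = 1.3e-06), and Lair1, an inhibitory collagen receptor, fell by 1.29 between Control and DOX (edgeR, adjusted p = 0.00547). Cd81, the most abundant of the list and a membrane protein that many cell types carry, differed by -0.15 and -0.06 on the log2 scale with doxorubicin and passed in neither setting.

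Among 16 signaling enzymes and adaptors tested, 5 were called lower in DOX against Control, 0 in Tb-DOX against Tb, 6 higher in Tb against Control and 7 higher in Tb-DOX against DOX. The shares over all genes were 6.75%, 0.704% and 3.88% in that order, and for Tb-DOX against DOX 6.45% in either direction. Beside that count of 0 by edgeR, 3 of the 16 had an unadjusted p under 0.05, DESeq2 called 1 and limma 0. Fyn, a Src-family kinase and the most abundant of the list, was at -0.47 there (edgeR, adjusted p = 0.0309), under the fold minimum. Btk, a kinase of the receptor pathway, rose by 2.28 between Control and Tb and was at -0.28 between Tb and Tb-DOX (edgeR, adjusted p = 0.000249 and 0.699). Vav1, Pik3cd and Prkcb rose with the tumor as well, by 2.61, 1.92 and 2.13. These enzymes serve other leukocytes too.

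Of 11 B lineage transcription factors tested beside Pax5, 2 were called higher in Tb against Control, beside 3.88% of all genes. They were Spi1, by 2.97, and Ikzf1, by 3.29 on the log2 scale (edgeR, adjusted p = 4.16e-06 and 7.12e-05), both of which act in other blood lineages. Pou2af1 was the 1 called lower in Tb-DOX against Tb, and it reached the count minimum only through Tb, with a mean of 3.0 reads over the other libraries. Of 8 survival cytokines and receptors tested, Tnfsf13b, the B cell survival factor BAFF, was called higher in DOX against Control at 1.41 (edgeR, adjusted p = 0.000398) and was at 0.22 in Tb-DOX against Tb (edgeR, adjusted p = 0.678). Among 9 homing genes tested, 1 was called higher and 2 lower in DOX against Control, and 1 lower in Tb-DOX against Tb. Over all genes, 6.75% and 0.704% were called lower in these comparisons. Ccl21a, a chemokine of lymphatic vessels, fell with doxorubicin by 2.35 without a tumor and by 1.22 with it (edgeR, adjusted p = 5.82e-07 and 0.00208).

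Plasma cell genes gave 1 call of 7 tested with doxorubicin, Mzb1, a chaperone of immunoglobulin assembly, at -2.10 in DOX against Control (edgeR, adjusted p = 0.00916) and 0.81 in Tb-DOX against Tb (edgeR, adjusted p = 0.398). In DOX against Control 6.75% of all genes were called lower, so 1 call of 7 says little about the list. None of 9 other immunoglobulin constant genes reached the count minimum, and their summed level lay between 0 and 1.21 CPM. Of 10 other B lineage markers tested, 3 were called lower with doxorubicin without a tumor and 1 with it, beside 6.75% and 0.704% of all genes. The tumor went with 4 called higher in each setting, beside 3.88% of all genes without doxorubicin. These markers were Cd52 (4.30 between Control and Tb), Cd37 (4.13), Ltb (4.00) and Cd24a (3.12), which other leukocytes also express. Of the 7 genes of B cell precursors only Cd93, which endothelium also carries, was tested, and it was at -0.16 between Control and DOX and 0.06 between Control and Tb (edgeR, adjusted p = 0.448 and 0.855).

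Markers of other blood cells moved in the same libraries. Summed pan-leukocyte genes, Ptprc among them, had medians of 44.4 CPM in Control, 28.4 in DOX, 261.8 in Tb and 258.8 in Tb-DOX, and 6 of 7 were called higher with the tumor, 3 of 7 lower in DOX against Control and 0 of 7 in Tb-DOX against Tb (0 at an unadjusted p under 0.05 by edgeR, and 0 called by DESeq2 or limma). Summed neutrophil markers lay between 2.74 and 5.02 CPM in Control, 8.53 and 61.1 in DOX, 570 and 5239 in Tb, and 874 and 3653 in Tb-DOX, with 0 of 10 called by edgeR between the last pair (1 at an unadjusted p under 0.05, 1 called by DESeq2 and 0 by limma). In that same comparison 4 of the 6 B cell genes tested were called lower, beside 0.704% of all genes. Cd79a and Pax5 were among them only with the count minimum, and Igkc passed in 6 of 21 fits that left out a single library. The difference between the lists was not tested. Over all genes, 3.88% were called higher in Tb against Control and 6.75% lower in DOX against Control.

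**Figure D4:**
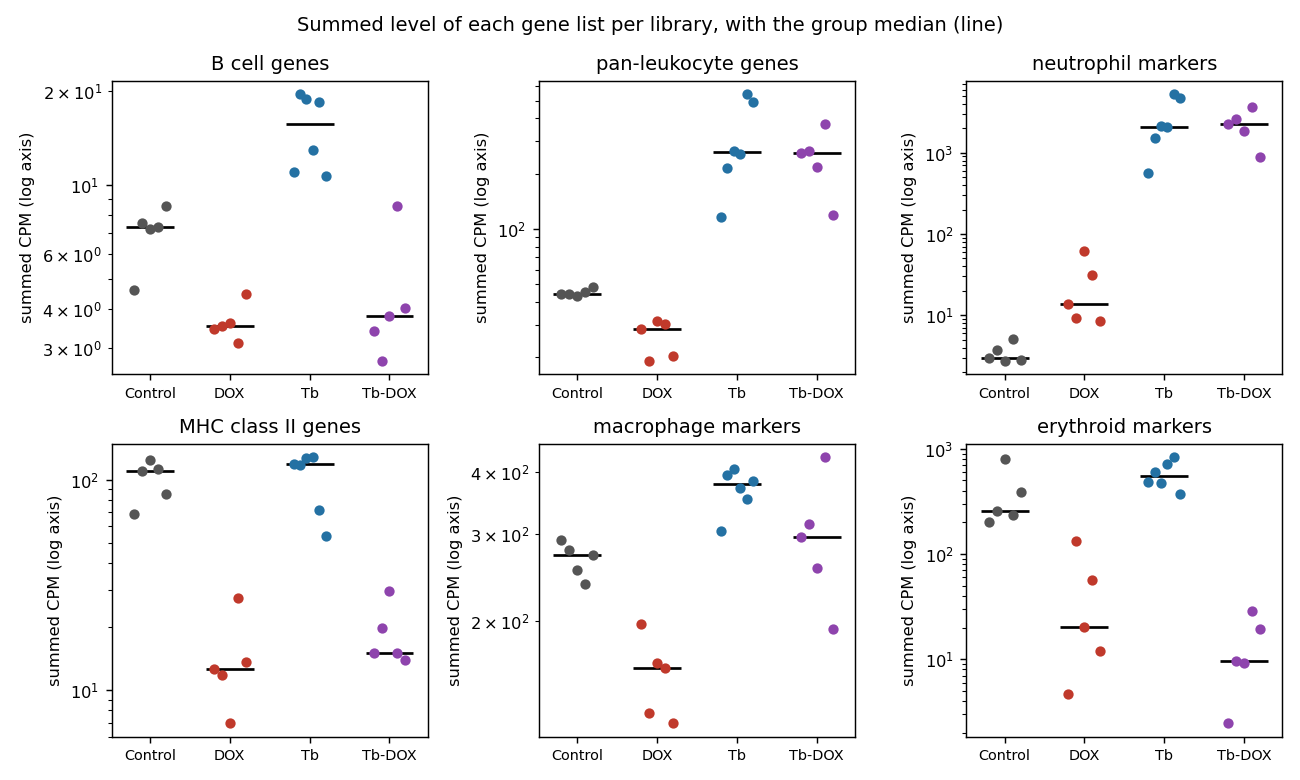
Summed level of 6 gene lists in each library, in TMM-scaled CPM on log axes, with a line at the group median. The B cell genes, the MHC class II genes and the erythroid markers are lower in Tb-DOX than in Tb, whereas pan-leukocyte genes and neutrophil markers have Tb-DOX medians close to those of Tb.

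Erythroid markers were lower with doxorubicin in both settings, 6 of 6 tested each time, with summed levels of 203 to 798 CPM in Control, 4.73 to 134 in DOX, 373 to 833 in Tb and 2.45 to 28.6 in Tb-DOX. MHC class II genes, which B cells share with macrophages and dendritic cells, were called lower in 6 of 8 and 4 of 8, and their sums were 68.9 to 124 CPM, 6.94 to 27.4, 54.2 to 128 and 13.8 to 29.6 in the same order. Macrophage markers gave 2 of 11 called lower in DOX against Control and 0 of 11 by edgeR in Tb-DOX against Tb (4 at an unadjusted p under 0.05, 0 called by DESeq2 or limma). Over all genes, 6.75% were called lower in DOX against Control and 0.704% in Tb-DOX against Tb. The part that red cells, retained blood or other antigen-presenting cells have in the B cell values was not tested.

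T cell markers were low except Cd3e, which reached 308 CPM in DOX 4 and 42.6 CPM in Tb 5 without a like level of Cd3d or Cd3g. Each of those libraries also agreed least with its own group over all genes. When both were left out, Ighm was still called in both doxorubicin comparisons and Pax5 in Tb against Control, and the count in Tb-DOX against Tb was 3 of 6 in place of 4.

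The calls differed in how much they rested on single libraries. Leaving out each of the 21 libraries in turn kept Ighm called in both doxorubicin comparisons every time, with log2 fold changes between -1.72 and -1.30 without a tumor and between -1.95 and -1.63 with it. Cd79a, Igkc and Pax5 in Tb-DOX against Tb passed in 11 of 21, 6 of 21 and 8 of 19 such fits, with all directions kept. Only Ighm was called there without Control 1, Control 2, Tb 2, Tb 3, Tb-DOX 1, Tb-DOX 2, Tb-DOX 3 or Tb-DOX 5, and 2 members without Control 3, Control 5, DOX 1, DOX 2, Tb 1 or Tb 4. Without Tb 2 or Tb 3, Pax5 fell under the count minimum, so 0 members were called in Tb against Control and for the difference of effects. For Pax5 that difference was also not called without DOX 3 (edgeR, adjusted p = 0.0607) or Tb-DOX 1 (edgeR, adjusted p = 0.0515).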

How the data were processed

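The deposited table holds read counts and FPKM values per gene for 21 heart libraries. The authors made the counts by trimming with Cutadapt, aligning to GRCm39 with HISAT2 and counting with HTSeq 0.6.1, per the labels and the submitters' notes. The deposited FPKM values equal the count per kilobase of exon scaled to the library's counted reads to within 0.0051 in 100% of entries; they are given to 2 decimals, which is coarse for the lowest members. Whether counting used strand is not given in the sources used here, so reads of overlapping antisense genes (at most 4 in all for any such neighbour of a member) could not be told apart.

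The members and the gene lists were chosen with earlier results of these data known, and the lists rest on general knowledge. Samples were grouped by their titles. Counts were fitted with edgeR 4.0.16 (R 4.3.3; TMM scaling, quasi-likelihood F test, 1 coefficient per group) over genes with a mean count of at least 5, with Benjamini-Hochberg adjustment over the 16761 genes that remained. The fit and the exact permutation test were tested on simulated data. Fold changes of CPM for members under the minimum used a pseudocount of 0.5. Alternatives were DESeq2 1.42.0, limma 3.58.1, other scalings, filters and thresholds, a replicate block and leaving out libraries. All 9 members are named, with, from each list used, the most abundant gene and up to 4 called genes of lowest adjusted p, the 10 genes most like the members (1 of which is not reported here) and the 3 most abundant variable segments; in lists of other cell types only those beside a result are named.

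Totals ranged from 13521200 to 18601445 counted reads, and limits at a count of 0 cover counting error only. No replicate pair agreed within sampling noise (chi-square per degree of freedom of at least 5.33). Sequences came from RefSeq promoters (GRCm38.p6) and GENCODE M21 transcripts (longest open reading frame), while gene positions are those of the table.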

Additional observations from a re-analysis of the deposited data

Results flagged for a closer look

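Cd79a in Tb-DOX 4 stood apart from its group, at 0.681 CPM (12 reads) where the other 4 Tb-DOX libraries lay between 0.0592 and 0.167 CPM. The Ighd share of Ighd plus Ighm reads stood apart in Control 4, at 34.8% against 4.50% to 12.7% in the other Control libraries, and in DOX 2, at 45.5% against 23.8% to 29.4%. These were 3 of 40 combinations of measure and group examined for a sample far from the others, and chance gives about 1 in 20. The effect of doxorubicin on Pax5 differed between tumor-bearing and tumor-free mice by -3.67 on the log2 scale (edgeR, adjusted p = 0.0293). It rests on 5 reads in Control, 15 in DOX, 80 in Tb and 16 in Tb-DOX, and Pax5 reached the count minimum only through Tb. With no count minimum the adjusted p was 0.0438 by edgeR. DESeq2 gave -3.84 with an unadjusted p of 0.000661 and no adjusted p.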

How the results depend on the processing

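Ighm in both doxorubicin comparisons kept its direction under every alternative, and was called under each, apart from limma on log2(FPKM + 1), where DOX against Control gave -0.92. Pax5 in Tb against Control was called under the edgeR and DESeq2 alternatives that tested it and under neither limma fit. The 3 other calls in Tb-DOX against Tb lay close to the threshold. Of 978 values for members under the alternatives, 885 kept direction and side of the threshold, 63 lost the call, 11 gained one and 19 changed sign, and the cause was not tested. At these depths a member with a few reads per library cannot show a small difference.

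In Tb-DOX against Tb, 4 members were called, but with no filter Cd79a and Pax5 were not and Ms4a1 was, and the count was 1 with library totals only or at an adjusted p under 0.01, 2 with a minimum mean FPKM of 0.5 (which leaves only 2 members tested), with limma on log2(FPKM + 0.1) or on log2(FPKM + 1), or with only the groups compared in the fit, and between 1 and 4 when single libraries were left out. In Tb against Control, 1 member was called, but 2 with DESeq2, with no minimum fold change or with only the groups compared, 0 with the FPKM minimum or either limma fit, and between 0 and 3 without single libraries, with 2 without Control 4, Control 5, Tb 6 or Tb-DOX 4 and 3 without Tb 1. The difference of the doxorubicin effects called 1 member, but 0 with the FPKM minimum, DESeq2 (which gave Pax5 no adjusted p), either limma fit or an adjusted p under 0.01, and between 0 and 2 without single libraries (2 without Tb-DOX 4). In DOX against Control, 1 member was called in all but the limma fit on log2(FPKM + 1), which called 0.

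Over all genes, Tb-DOX against Tb called 197, but 307 with DESeq2, 672 with no minimum fold change, 109 with only the groups compared, 64 at an adjusted p under 0.01, 42 with limma on log2(FPKM + 1), and 96 to 306 without single libraries. With no minimum fold change and with limma on log2(FPKM + 1), DOX against Control called 5611 and 527 in place of 1952, Tb against Control 1064 and 275 in place of 678, Tb-DOX against DOX 2718 and 359 in place of 1081, and the difference of effects 1329 and 210 in place of 643. At an adjusted p under 0.01 the last pair called 672 and 38, and the difference of effects called 252 with the replicate block, 391 without both DOX 4 and Tb 5, and as few as 346 without a single library.

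The median log2 fold change of the members in DOX against Control was -0.083 with no filter, -1.37 with the FPKM minimum, -0.12 with limma on log2(FPKM + 1), -1.07 with only the groups compared, and between -0.95 and -0.11 without single libraries. In Tb-DOX against DOX it was 0.67 with the FPKM minimum, 0.60 with only the groups compared, and between -0.44 and 0.29 without single libraries. With limma on log2(FPKM + 1) it was -0.47 in Tb-DOX against Tb, 0.38 in Tb against Control and -0.29 for the difference of effects, which lay between -1.45 and -0.57 without single libraries.

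Some values changed sign. With library totals only, Tb-DOX against DOX gave 0.19 for Ighd and 0.015 for Pax5, and DOX against Control gave -0.0026 for Fcmr and -0.0086 CPM for the variable segments. Ighd in DOX against Control was 0.12 with limma on log2(FPKM + 0.1) and with both DOX 4 and Tb 5 left out (an alternative chosen after seeing the data), and Ighd in Tb-DOX against DOX was 0.0095 with limma on log2(FPKM + 1). Without single libraries the log2 fold change lay between -0.28 and 0.75 for Ighd in DOX against Control, and in Tb-DOX against DOX between -0.63 and 0.26 for Ighd, -0.26 and 0.48 for Cd79b, and -0.79 and 0.039 for Pax5. On log2(CPM + 0.5) it lay between -0.065 and 0.19 for Cd22 in Tb against Control, -0.060 and 0.071 for Fcmr and -0.080 and 0.061 for Ms4a1 in DOX against Control, and -0.0022 and 0.14 for Fcmr in Tb-DOX against Tb.

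Without single libraries, the difference in the Ighd share lay between 13.5 and 22.8 points in DOX against Control, where the exact permutation p exceeded 0.05 in 8 of 10 cases, and between -2.59 and 5.32 in Tb against Control. For the Igkc share it lay between -10.4 and 2.11 points in DOX against Control, -16.9 and 8.13 in Tb-DOX against Tb, and -17.2 and 8.20 in Tb-DOX against DOX. For the variable segments it lay between -0.037 and 0.16 CPM in DOX against Control and -0.14 and 0.12 CPM in Tb-DOX against DOX. In DOX against Control the number of segments with a read differed by -1.55 to 0.70, and the share of the most abundant segment by -17.3 to 4.96 points.

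Groups share replicate numbers, but the numbers did not pair the libraries: the deviations of same-numbered libraries correlated between -0.238 and 0.195 over 30 pairs, and 2 of 21 libraries lay closest to their own number. With the replicate number as a block, 2 members were called in Tb against Control (Pax5 and Ighm), 3 in Tb-DOX against Tb and 1 in DOX against Control, and Ighd in DOX against Control was 0.25. The 3 were Ighm, Pax5 and Cd79b, the last at -1.78 (edgeR, adjusted p = 0.0473), a call that the fit without the block did not make, while Cd79a and Igkc lost theirs.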
